A study of Homo sapiens with 16 samples.

Results

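Frizzled (FZD) proteins and the LRP5 and LRP6 co-receptors are the cell-surface receptors for Wnt ligands, and their mRNA was followed in SW480 cells, an established human colorectal cancer line in which the APC gene is truncated and beta-catenin is active without a Wnt signal. The 10 genes listed were FZD1 to FZD8, LRP5 and LRP6, and their members on the array were all probe sets annotated to exactly 1 of these symbols. That rule gave 21 of the 54675 probe sets, covering 9 of the 10 genes. FZD1 had 3 probe sets, FZD2, FZD4, FZD5, FZD7 and LRP5 had 2 each, FZD3 had 4, FZD6 had 1 and LRP6 had 3. FZD8 had 0, because its 3 probe sets are annotated to a microRNA gene as well, so it has no value in the comparisons.

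The 16 Affymetrix arrays fell into 4 groups of 4, with replicates lettered A to D in each. The siTAZ cells carried a stable empty vector and received an siRNA against TAZ, the product of WWTR1, which works with TEAD factors in transcription. The sibcat cells carried the same empty vector and received an siRNA against beta-catenin (gene CTNNB1). The APC cells were stably transfected to express wild-type APC and were given control siRNA, and the control cells carried the empty vector and the control siRNA, named siGFP in the titles. No group was given a further treatment, each target had 1 siRNA condition, and the labels do not say whether the APC cells are 1 clone or a pool. By its title and design the series sets loss of TAZ beside loss of beta-catenin and the return of APC.

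A Wnt ligand binds the cysteine-rich outer domain of a Frizzled and, at the same time, LRP5 or LRP6, whose inner tail is then phosphorylated and draws Axin away from the complex that destroys beta-catenin. Frizzleds also act without LRP5 or LRP6, in planar cell polarity and calcium signalling. In the intestinal crypt, surface Frizzleds are removed by the ubiquitin ligases RNF43 and ZNRF3, which are themselves Wnt target genes, and R-spondins bound to LGR receptors hold these ligases in check. By sequence the Frizzleds form subfamilies: FZD1, FZD2 and FZD7, then FZD5 and FZD8, then FZD4 with FZD9 and FZD10, then FZD3 and FZD6.

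Values are log2 expression levels, so a difference of 1 is a doubling of the signal, and a level of 5.10 was the median of all probe sets. A signal below it may be largely background. Of the 21 probe sets, 18 reached 5.10 in at least 1 group. The other 3 were 236035_at of FZD1, 224337_s_at of FZD4 and 206136_at of FZD5. Different probe sets have different affinities, so no level is compared between genes. A probe set was called changed at an adjusted p under 0.05 in a limma fit over all probe sets of the array.

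The siRNA targets were low in the groups labelled for them. WWTR1 had 6.79, 7.0, 6.77 and 7.06 in siTAZ cells, against 10.26, 10.13, 10.33 and 10.39 in control cells (difference -3.37, SE 0.08). It was also 0.70 higher in sibcat cells and 0.73 higher in APC cells than in control cells (adjusted p = 1.83e-06 and 1.19e-06). CTNNB1 averaged 10.17 ± 0.24 in sibcat cells and 13.13 ± 0.16 in control cells (SD, n = 4 each). It fell by 0.38 on the log2 scale in APC cells (adjusted p = 0.0184), and gave 0.20 in siTAZ cells without passing (adjusted p = 0.250). The brightest probe set of APC differed by 0.08 in APC cells and did not pass the test (adjusted p = 0.743), and which probe sets lie in the introduced sequence is not known here. Of 9 measured Wnt readout genes, 0 rose and 8 fell in sibcat cells (median -1.55), 0 rose and 7 fell in APC cells (median -0.68) and 1 rose and 0 fell in siTAZ cells (median 0.04). Of 11 colon epithelial markers 9 reached 5.10, among them EPCAM (12.69, 12.63, 12.92 and 12.80 in siTAZ, sibcat, APC and control cells), while KRT20 and LGALS4 did not. Their summed log2 level ran from 91.1 to 91.88 in siTAZ, 92.79 to 93.05 in sibcat and 90.47 to 91.37 in APC cells, against 92.58 to 92.95 in control cells. CDH1 averaged 8.75, 10.29 and 10.01 in siTAZ, sibcat and APC cells and 9.88 in control cells, CDX2 7.04, 5.59 and 6.12 against 6.56, and VIL1 5.84, 6.98 and 5.56 against 5.96. Of 3 measured leukocyte markers 2 reached 5.10, with summed levels of 13.02 to 13.73 in siTAZ, 14.12 to 14.69 in sibcat and 13.08 to 13.32 in APC cells, against 12.72 to 13.54 in control cells. CD14 averaged 5.20, 6.24 and 5.08 in siTAZ, sibcat and APC cells and 4.60 in control cells, and the defining PTPRC stayed near 3.1. Of 6 fibroblast markers 3 reached 5.10 (COL1A1 at group means of 6.83 to 6.99, PDGFRB and THY1) and COL3A1 lay between 3.49 and 3.73. Their summed levels were 27.71 to 28.39 in siTAZ, 27.96 to 28.93 in sibcat and 28.23 to 29.49 in APC cells, against 27.95 to 30.02 in control cells. Of 4 endothelial markers only PECAM1 reached it and CDH5 lay between 3.18 and 3.37. Their summed levels were 16.64 to 16.92 in siTAZ, 16.6 to 17.19 in sibcat and 16.31 to 17.15 in APC cells, against 16.04 to 16.65 in control cells. The part of these markers in the receptor results was not tested. The 3 prime minus 5 prime difference of the ACTB control probe sets, a sign of RNA quality, was 2.57 ± 0.39 in siTAZ, 2.30 ± 0.24 in sibcat, 2.08 ± 0.32 in APC and 2.05 ± 0.16 in control cells. In bulk RNA, fewer cells expressing a receptor and less of its RNA per cell cannot be told apart.

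Promoter windows were looked up in RefSeq for FZD1, FZD2, FZD4, FZD5, FZD7, LRP5 and LRP6, while FZD3 and FZD6 were left out of the lookup. The 4 that could be shown are given to set the receptors' start sites beside the TCF/LEF and TEAD cores. On their brightest probe sets FZD1, FZD5 and LRP5 rose in both sibcat and APC cells, and FZD4 rose in APC cells and did not pass in sibcat cells. Each window is the 250 bases before the annotated start of transcription (GRCh38.p14), on the gene's strand: chr7:91264183-91264432 (+) for FZD1, chr2:207769907-207770156 (-) for FZD5, chr11:68312341-68312590 (+) for LRP5 and chr11:86955396-86955645 (-) for FZD4. Capitals mark CTTTG, the core that TCF/LEF factors recognise, on either strand.
FZD1: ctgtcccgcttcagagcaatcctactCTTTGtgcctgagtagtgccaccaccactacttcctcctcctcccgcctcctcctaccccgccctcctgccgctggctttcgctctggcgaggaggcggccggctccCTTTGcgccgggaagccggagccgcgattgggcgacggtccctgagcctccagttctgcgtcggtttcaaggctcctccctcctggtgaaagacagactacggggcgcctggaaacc
FZD5: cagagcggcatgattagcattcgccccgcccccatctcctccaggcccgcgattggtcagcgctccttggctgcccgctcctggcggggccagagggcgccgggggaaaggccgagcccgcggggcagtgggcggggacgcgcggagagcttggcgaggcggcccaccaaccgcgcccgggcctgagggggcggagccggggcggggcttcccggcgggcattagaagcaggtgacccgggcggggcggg
LRP5: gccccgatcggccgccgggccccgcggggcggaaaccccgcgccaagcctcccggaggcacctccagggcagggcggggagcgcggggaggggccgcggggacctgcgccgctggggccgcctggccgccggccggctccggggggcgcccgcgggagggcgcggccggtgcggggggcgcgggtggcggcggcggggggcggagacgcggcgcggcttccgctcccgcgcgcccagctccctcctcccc
FZD4: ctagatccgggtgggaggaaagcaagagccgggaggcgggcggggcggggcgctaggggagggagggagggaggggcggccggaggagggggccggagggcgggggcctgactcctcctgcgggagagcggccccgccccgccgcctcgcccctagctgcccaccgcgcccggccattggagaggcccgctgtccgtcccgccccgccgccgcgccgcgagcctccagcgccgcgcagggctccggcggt
The FZD1 window held CTTTG 2 times on the gene's strand and 0 times as CAAAG, and the other 3 windows held neither. The core is short, and 42.1% of all 35116 windows of this length held it on at least 1 strand. None of the 4 windows held CTTTGAT or its reverse complement (2.26% of all windows), or the TEAD core GGAATG or its reverse complement (11.9% of all windows). The windows were rich in G and C, with 65.2% in FZD1, 76.8% in FZD5, 87.2% in LRP5 and 80.8% in FZD4, against a median of 58% over all windows. These matches describe letters in these windows and no binding was measured.

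**Figure D1:**
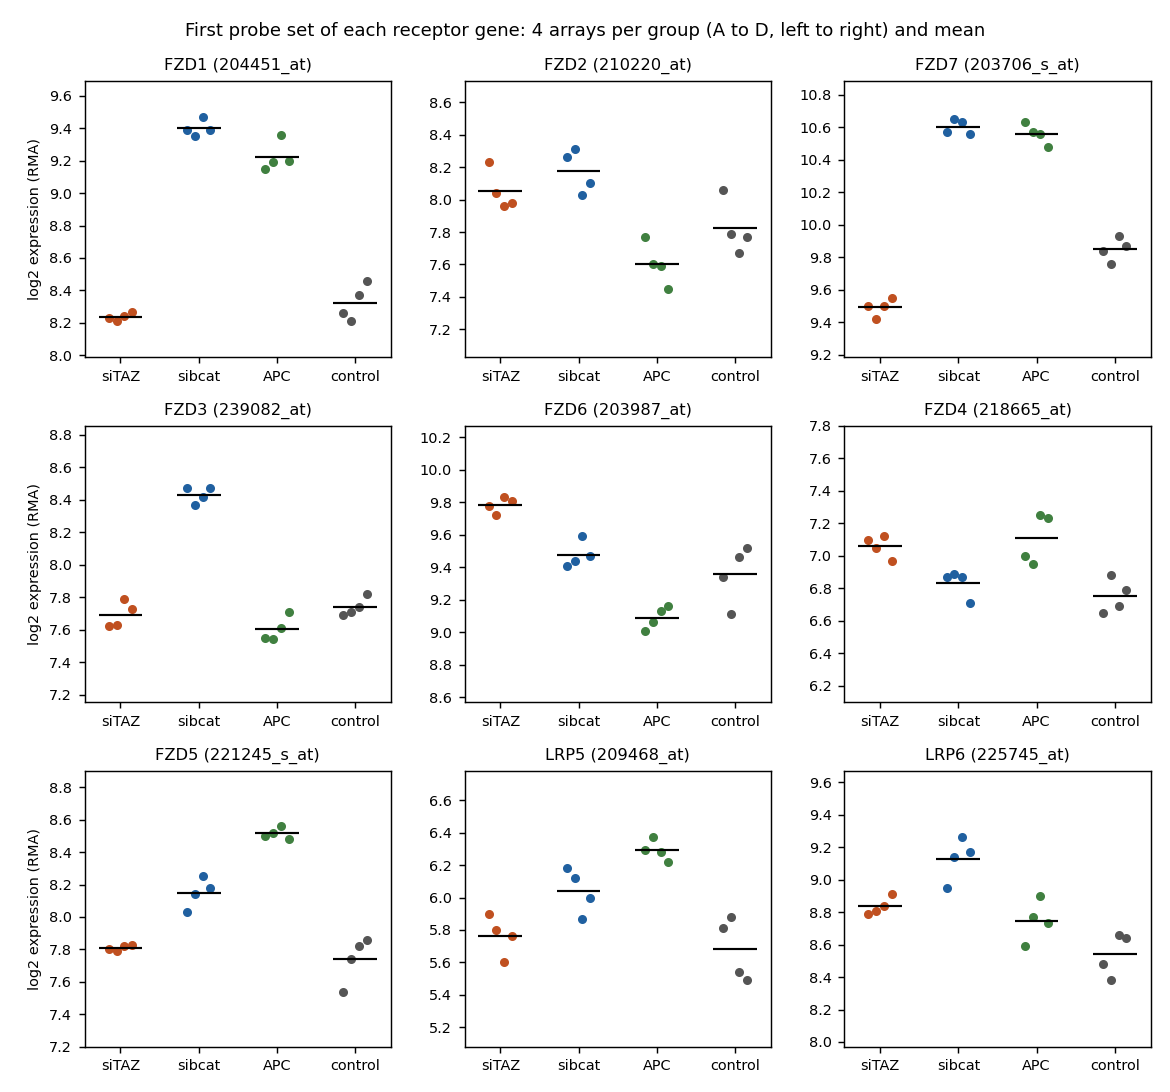
Log2 expression of the brightest probe set of each of the 9 genes, with 1 point per array (replicates A to D from left to right), groups along the horizontal axis and a line at each group mean; every panel spans the same height on the log2 scale. FZD1 and FZD7 sit about 0.7 to 1.1 higher in sibcat and APC cells than in control cells, FZD3 is high in sibcat cells alone, and FZD6 is highest in siTAZ cells.

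Most receptor probe sets were higher in sibcat cells. Of the 21 probe sets, 15 rose and 0 fell against control, where 25.6% of all probe sets were called, 13.4% higher and 12.2% lower. Among probe sets that reached the median level the called share was 43.1%, and the share called higher was 22.2%. By the brightest probe set of each gene, 7 of 9 genes rose (FZD1, FZD2, FZD3, FZD5, FZD7, LRP5 and LRP6), against 17.1% of all genes called higher, and FZD4 and FZD6 did not pass. At an unadjusted p under 0.05 the count over all probe sets of the family was 18, of which 229591_at of LRP5 was the lower one. At that threshold stood 18392 of all 54675 probe sets, and 15280 of the 28941 that reached the median level. The median difference over the 21 probe sets was 0.36, against 0.0025 over all probe sets.

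In APC cells, against the same control arrays, 8 of the 21 probe sets rose and 2 fell, where 24% of all probe sets were called, 12.7% higher and 11.3% lower (38.7% of those reaching the median level, and 19.6% higher). FZD1, FZD4, FZD5, FZD7 and LRP5 rose by their brightest probe set and FZD6 fell, while FZD2, FZD3 and LRP6 did not pass. The median difference was 0.19, against 0.0225 over all probe sets. In siTAZ cells 3 probe sets rose and 4 fell, where 20.3% of all probe sets were called, 10.5% higher and 9.77% lower (34.8% of those reaching the median level, and 17.9% higher). Those 7 are 33.3% of all the members. In a fit of only the probe sets reaching the median level, 7 of 18 members were called, close to the 40.5% of all those tested. FZD4, FZD6 and LRP6 rose and FZD7 fell by the brightest probe set, and the median difference over the 21 was 0.06, against 0.0075 over all probe sets.

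**Figure D2:**
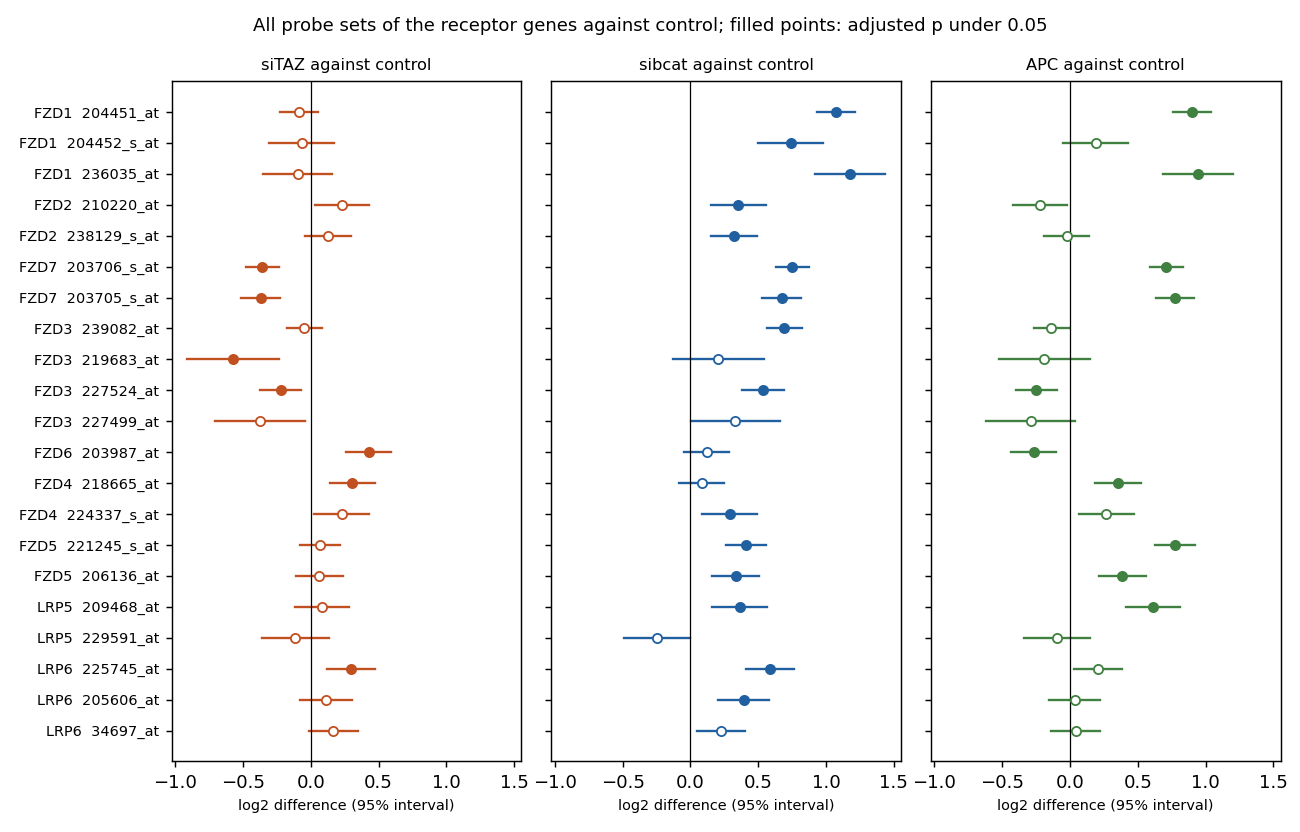
Log2 difference from control of all 21 receptor probe sets, with 95% intervals from limma, in siTAZ, sibcat and APC cells from left to right; filled points have an adjusted p under 0.05. The points of sibcat cells lie to the right of 0 except for 229591_at of LRP5 (-0.25), whereas those of siTAZ cells lie on both sides.

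The widest ranges of group means were those of FZD1 and FZD7, of the subfamily that also holds FZD2. FZD1, a receptor linked to both beta-catenin and G protein signalling, was highest in sibcat cells. On its brightest probe set (204451_at) it read 9.39, 9.35, 9.47 and 9.39 in sibcat cells, 9.15, 9.19, 9.36 and 9.20 in APC cells and 8.23, 8.21, 8.24 and 8.27 in siTAZ cells, against 8.26, 8.21, 8.37 and 8.46 in control cells. The sibcat and APC arrays all lay above every control array, and the siTAZ arrays overlapped the control arrays.

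FZD1 rose by 1.08 in sibcat cells (SE 0.07, 2.11-fold, adjusted p = 1.32e-09) and by 0.90 in APC cells (1.87-fold, adjusted p = 1.00e-08). In siTAZ cells it differed by -0.09 (95% interval -0.23 to 0.05, adjusted p = 0.440). The other FZD1 probe sets, 236035_at and 204452_s_at, rose by 1.18 and 0.74 in sibcat cells. In APC cells 236035_at rose by 0.95, while 204452_s_at differed by 0.19 and did not pass (adjusted p = 0.272). Both are dim, with control means of 3.02 and 4.69, so the sizes of their differences are uncertain. Set directly against sibcat cells, APC cells read 0.18 lower for FZD1 on 204451_at (adjusted p = 0.0503), a difference that passed with the replicate letter as a block (adjusted p = 0.0249), without APC replicate C (-0.22, adjusted p = 0.0176) and as the mean of the 3 probe sets (-0.32, adjusted p = 5.23e-04). It stayed uncalled in 13 of the 21 alternative fits that could be run for it. Of the dim probe sets, 204452_s_at gave -0.55 (adjusted p = 9.49e-04) and 236035_at -0.23, which did not pass (adjusted p = 0.182). FZD1 in siTAZ cells was 1.16 below sibcat cells and 0.99 below APC cells (adjusted p = 3.10e-10 and 1.77e-09).

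FZD7, a Frizzled much studied in colorectal cancer and in intestinal stem cells, moved in opposite directions in siTAZ cells and in the other manipulated cells. Its brightest probe set (203706_s_at) gave 9.50, 9.42, 9.50 and 9.55 in siTAZ cells, 10.57, 10.65, 10.63 and 10.56 in sibcat cells and 10.63, 10.57, 10.56 and 10.48 in APC cells, against 9.84, 9.76, 9.93 and 9.87 in control cells. All siTAZ arrays were thus below, and all sibcat and APC arrays above, every control array.

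The fall of FZD7 in siTAZ cells was 0.36 on the log2 scale (difference -0.36, SE 0.06, 1.28-fold, adjusted p = 1.67e-04). The rise was 0.75 in sibcat cells (SE 0.06, adjusted p = 2.21e-08) and 0.71 in APC cells (adjusted p = 4.06e-08). The other FZD7 probe set, 203705_s_at, gave -0.37, 0.67 and 0.78 in siTAZ, sibcat and APC cells, each past the test. The siTAZ differences did not pass in replicates A and B alone (-0.34 and -0.33, adjusted p = 0.0591 and 0.101) and passed in C and D alone. Between siTAZ and sibcat cells the FZD7 difference was -1.11, and between siTAZ and APC cells -1.07 (adjusted p = 1.07e-10 and 1.12e-10). APC and sibcat cells differed by -0.04 (95% interval -0.16 to 0.08), a difference that did not pass.

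FZD2, the remaining member of that subfamily and a receptor for WNT5A among others, changed less. On 210220_at it read 8.26, 8.31, 8.03 and 8.10 in sibcat cells, 7.77, 7.60, 7.59 and 7.45 in APC cells and 8.23, 8.04, 7.96 and 7.98 in siTAZ cells, against 8.06, 7.79, 7.67 and 7.77 in control cells. In each group the A and B arrays averaged above the C and D arrays, by 0.17 to 0.22, and at every letter the order was sibcat, siTAZ, control, APC from high to low. The rise in sibcat cells was 0.35 (SE 0.10, adjusted p = 0.010).

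FZD2 differed by -0.22 in APC cells and by 0.23 in siTAZ cells, and neither passed (adjusted p = 0.114 and 0.111). With the replicate letter as a block both passed (adjusted p = 0.0141 and 0.0122), and the siTAZ difference passed without control replicate A (0.31, adjusted p = 0.0272). Over all alternative fits the siTAZ difference ran from 0.03 to 0.31, with adjusted p up to 0.873, so its size is uncertain. The second FZD2 probe set, 238129_s_at, gave 0.32 in sibcat cells (adjusted p = 0.00540), -0.03 in APC cells and 0.13 in siTAZ cells. The siTAZ against sibcat difference of 238129_s_at (-0.20, adjusted p = 0.0831) and its siTAZ against APC difference (0.15, adjusted p = 0.181) passed with the block (adjusted p = 0.0134 and 0.0478). Between siTAZ and sibcat cells it also passed without siTAZ replicate A (-0.24, adjusted p = 0.0471) or sibcat replicate C (-0.24, adjusted p = 0.0492). The siTAZ against APC difference of 238129_s_at ran from 0.01 to 0.21 over all alternative fits, with adjusted p up to 0.935. Compared directly, FZD2 was lower in APC than in sibcat cells on both probe sets (-0.57 and -0.35, adjusted p = 1.23e-04 and 0.00236).

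FZD5, a receptor with a known role in Paneth cell maturation in the mouse intestine, rose most in APC cells. Its brightest probe set (221245_s_at) read 8.50, 8.52, 8.56 and 8.48 in APC cells, 8.03, 8.14, 8.25 and 8.18 in sibcat cells and 7.80, 7.79, 7.82 and 7.83 in siTAZ cells, against 7.54, 7.74, 7.82 and 7.86 in control cells. The siTAZ arrays lay within the control range. The APC arrays stood above all sibcat arrays, and these above all control arrays.

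FZD5 was 0.78 higher in APC cells (SE 0.07, 1.71-fold, adjusted p = 1.51e-07) and 0.41 higher in sibcat cells (1.33-fold, adjusted p = 1.97e-04). The difference in siTAZ cells was 0.07 (95% interval -0.08 to 0.22) and did not pass. APC cells were 0.37 above sibcat cells (adjusted p = 4.35e-04), and 0.21 above them as the mean of both FZD5 probe sets (adjusted p = 0.00436). On the dim probe set 206136_at FZD5 rose by 0.39 in APC and 0.34 in sibcat cells, and APC and sibcat cells differed there by 0.05, which did not pass.

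FZD4, which also serves as the receptor for Norrin in retinal vessels, was higher in siTAZ and APC cells. On 218665_at it read 7.10, 7.05, 7.12 and 6.97 in siTAZ cells, 7.0, 6.95, 7.25 and 7.23 in APC cells and 6.87, 6.89, 6.87 and 6.71 in sibcat cells, against 6.65, 6.88, 6.69 and 6.79 in control cells. The siTAZ and APC arrays lay above every control array, and sibcat arrays overlapped control.

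The rise of FZD4 was 0.31 in siTAZ cells (SE 0.08, adjusted p = 0.00894) and 0.36 in APC cells (adjusted p = 0.00259), and sibcat cells differed by 0.08 (95% interval -0.08 to 0.25, adjusted p = 0.540). The siTAZ rise was of like size but did not pass in A and B alone (0.31, adjusted p = 0.113) or in C and D alone (0.31, adjusted p = 0.0543), and the APC rise did not pass in A and B alone (0.21, adjusted p = 0.263). The direct difference of FZD4 between siTAZ and sibcat cells was 0.23 (adjusted p = 0.0435). It did not pass with the letter as a block (adjusted p = 0.0521), nor when any array of either group but siTAZ replicate D was left out (0.18 to 0.24, adjusted p = 0.0538 to 0.139). The FZD4 probe set 224337_s_at, below 5.10 in every group, was called higher in sibcat cells (0.29, adjusted p = 0.0334) and was not called in siTAZ (0.23) or APC cells (0.27, adjusted p = 0.0527, called without control replicate C or APC replicate A or C, with adjusted p = 0.0324 to 0.0487). As the mean of both probe sets, FZD4 was called in sibcat cells (0.19, adjusted p = 0.0167), and the siTAZ against sibcat (0.08, adjusted p = 0.313) and APC against sibcat differences (0.13, adjusted p = 0.0953; 0.27 and 0.0126 on 218665_at) did not pass. The sibcat call on 224337_s_at was lost without control replicate A, B or D or sibcat replicate B or C (0.23 to 0.30, adjusted p = 0.0579 to 0.119).

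FZD3 and FZD6 are the Frizzleds most tied to planar cell polarity, with roles in axon guidance and hair patterning in the mouse. FZD6, measured by 203987_at alone, read 9.78, 9.72, 9.83 and 9.81 in siTAZ cells, 9.41, 9.44, 9.59 and 9.47 in sibcat cells and 9.01, 9.06, 9.13 and 9.16 in APC cells, against 9.34, 9.11, 9.46 and 9.52 in control cells. The siTAZ arrays lay above all others, while control replicate B fell among the APC arrays.

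FZD6 rose by 0.43 in siTAZ cells (SE 0.08, 1.34-fold, adjusted p = 6.35e-04). It fell by 0.27 in APC cells (difference -0.27, adjusted p = 0.0187), a call that was lost without control replicate C (-0.23, adjusted p = 0.0650), control replicate D (-0.21, adjusted p = 0.0722) or APC replicate A (-0.24, adjusted p = 0.0581). In sibcat cells it differed by 0.12 (95% interval -0.05 to 0.29, adjusted p = 0.330). FZD6 in siTAZ cells was 0.70 above APC cells and 0.31 above sibcat cells (adjusted p = 1.61e-06 and 0.00653).

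FZD3 was higher in sibcat cells on its brightest probe set, and its 4 probe sets did not all behave alike. On 239082_at it gave 8.47, 8.37, 8.42 and 8.47 in sibcat cells, 7.55, 7.54, 7.61 and 7.71 in APC cells and 7.62, 7.63, 7.79 and 7.73 in siTAZ cells, against 7.69, 7.71, 7.74 and 7.82 in control cells. Only the sibcat arrays stood apart from control there. The rise in sibcat cells was 0.69 (SE 0.06, 1.62-fold, adjusted p = 1.30e-07), and 227524_at rose by 0.54 (adjusted p = 1.87e-05). The APC and siTAZ differences on 239082_at were -0.14 and -0.05 (adjusted p = 0.122 and 0.698). As the mean of the 4 probe sets FZD3 gave 0.44 in sibcat cells (adjusted p = 4.06e-04), and -0.30 in siTAZ cells, where it then passed (adjusted p = 0.0103).

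The remaining FZD3 probe sets, 219683_at and 227499_at, gave 0.21 and 0.33 in sibcat cells and did not pass (adjusted p = 0.420 and 0.146), although 227499_at passed without sibcat replicate A (0.47, adjusted p = 0.0331). On these 2 the C and D arrays averaged above the A and B arrays, most of all in control and sibcat cells. The gap on 219683_at was 0.55 in control, 0.46 in sibcat, 0.18 in siTAZ and 0.21 in APC cells. On 227499_at it was 0.46 in control, 0.515 in sibcat, 0.045 in siTAZ and 0.13 in APC cells. Control replicate B read 7.30 on 219683_at, against 7.87, 8.18 and 8.08 in A, C and D. Across the 16 arrays the Pearson correlation of 219683_at with 227499_at was 0.92, and with 239082_at 0.59. These arrays share 4 group means. After the group means were removed the 2 correlations were 0.93 and 0.41. Without control replicate B, 227499_at passed in siTAZ cells (-0.54, adjusted p = 0.00779; -0.37 and 0.115 with it) and in APC cells (-0.46, adjusted p = 0.0194; -0.29 and 0.214 with it), and 219683_at passed in APC cells (-0.37, adjusted p = 0.0390; -0.19 and 0.467 with it).

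In siTAZ cells FZD3 fell on 219683_at (-0.57, SE 0.16, adjusted p = 0.0150) and on 227524_at (-0.22, adjusted p = 0.0362). The call on 219683_at was lost without control replicate C (-0.47, adjusted p = 0.0602) or D (-0.50, adjusted p = 0.0549), in A and B alone (-0.39, adjusted p = 0.210) and once the ACTB difference entered the model as a covariate (-0.32, adjusted p = 0.241). The call on 227524_at was lost without control replicate A, B or D or siTAZ replicate C or D (-0.22 to -0.19, adjusted p = 0.0744 to 0.115), and within each pair of letters alone (-0.19 and -0.26, adjusted p = 0.390 and 0.0747). In APC cells 227524_at fell by 0.25 (difference -0.25, adjusted p = 0.0172), which did not pass without APC replicate B, C or D (-0.23 to -0.22, adjusted p = 0.0516 to 0.0556). Direct comparison with sibcat cells held on all 4 FZD3 probe sets for siTAZ cells (-0.78 to -0.71, adjusted p = 4.30e-08 to 0.00211). For APC cells 3 of the 4 passed (-0.83 to -0.62), and 219683_at (-0.40, adjusted p = 0.0711) passed with the letter as a block (adjusted p = 0.00830) and without sibcat replicate A (-0.48, adjusted p = 0.0430). The siTAZ against APC difference of 219683_at (-0.39, adjusted p = 0.0778) also passed with the block (adjusted p = 0.00951). Over all alternative fits it ran from -0.425 to -0.146, with adjusted p from 0.00441 to 0.581.

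**Figure D3:**
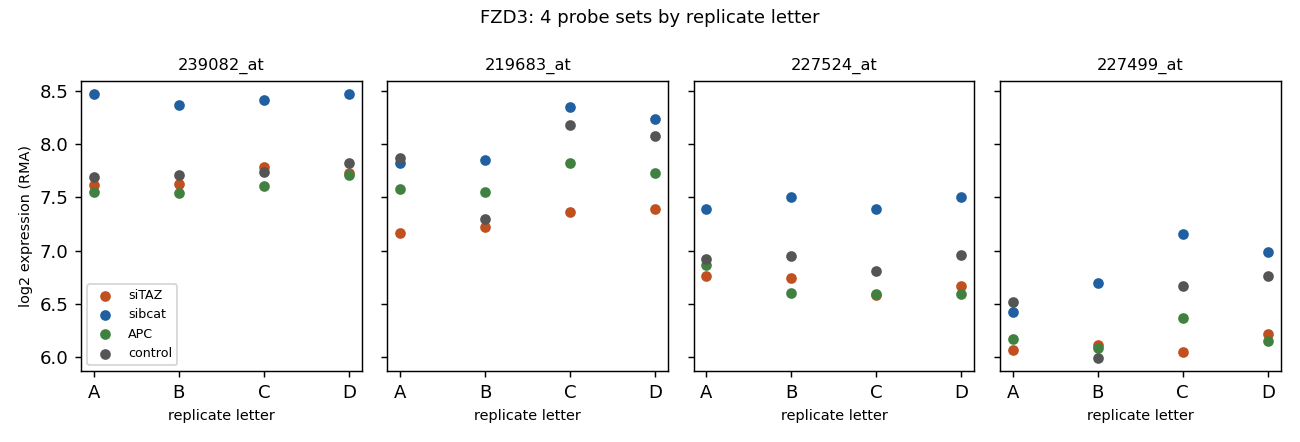
Log2 expression of the 4 FZD3 probe sets (panels, brightest first) against replicate letter, with 1 point per array coloured by group. On 239082_at and 227524_at the sibcat points lie above all others at every letter. On 219683_at and 227499_at the control and sibcat values depend on the letter, with control replicate B at 7.30 on 219683_at.

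The co-receptors LRP5 and LRP6 both rose in sibcat cells on their brightest probe sets. LRP5, in which mutations alter bone mass and retinal vessels in people, read 6.29, 6.37, 6.28 and 6.22 in APC cells, 6.18, 6.12, 5.87 and 6.0 in sibcat cells and 5.90, 5.80, 5.6 and 5.76 in siTAZ cells on 209468_at, against 5.81, 5.88, 5.54 and 5.49 in control cells. The APC arrays lay above all control arrays, and sibcat replicate C fell within the control range.

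LRP5 was 0.61 higher in APC cells (SE 0.09, 1.53-fold, adjusted p = 9.11e-05) and 0.36 higher in sibcat cells (adjusted p = 0.00778), and siTAZ cells differed by 0.09 (95% interval -0.12 to 0.29). Its other probe set, 229591_at, gave -0.10, -0.25 and -0.11 in APC, sibcat and siTAZ cells, of which none passed (the sibcat one did without control replicate D, at -0.33 and adjusted p = 0.0491), and at group means of 4.94 to 5.18 it lay near the median level. As the mean of both probe sets, the APC difference was 0.26 (adjusted p = 0.0396) and the sibcat difference 0.06 (adjusted p = 0.704), so the LRP5 rise in sibcat cells rests on 209468_at. By the same mean LRP5 was 0.27 lower in siTAZ than in APC cells (-0.27, adjusted p = 0.0239; -0.53 and 2.56e-04 on 209468_at). The APC against sibcat difference of LRP5 was 0.25 on 209468_at (adjusted p = 0.0566), and it passed with the letter as a block (adjusted p = 0.00873) and without sibcat replicate A (0.29, adjusted p = 0.0372). LRP5 was lower in siTAZ than in sibcat cells (-0.28, adjusted p = 0.0375), which did not pass without siTAZ replicate B, C or D or sibcat replicate A, B or D (-0.29 to -0.22, adjusted p = 0.0557 to 0.128) or as the mean of both probe sets (-0.07, adjusted p = 0.621).

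LRP6, the co-receptor that carries most canonical Wnt signalling in mouse embryos, was highest in sibcat cells. On 225745_at it read 8.95, 9.14, 9.26 and 9.17 in sibcat cells, 8.79, 8.81, 8.84 and 8.91 in siTAZ cells and 8.59, 8.77, 8.90 and 8.73 in APC cells, against 8.48, 8.38, 8.66 and 8.64 in control cells. Both sibcat and siTAZ arrays lay above every control array, and APC arrays overlapped control.

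The rise of LRP6 was 0.59 in sibcat cells (SE 0.08, 1.51-fold, adjusted p = 3.16e-05), and 205606_at rose there by 0.39 (adjusted p = 0.00280). The third LRP6 probe set, 34697_at, gave 0.23 in sibcat cells and did not pass (adjusted p = 0.0617). It passed without control replicate A (0.28, adjusted p = 0.0320) or sibcat replicate D (0.26, adjusted p = 0.0462). It also passed with letters joined in pairs (A with B, C with D) as a block (adjusted p = 0.0410). In a fit of only probe sets reaching the median level it passed as well (adjusted p = 0.0317). In siTAZ cells 225745_at rose by 0.30 (adjusted p = 0.0158), and the mean of the 3 probe sets by 0.19 (adjusted p = 0.00875). The call on 225745_at was lost without control replicate B (0.24, adjusted p = 0.0522), in A and B alone (0.37, adjusted p = 0.0780) and in C and D alone (0.23, adjusted p = 0.116), and the other LRP6 probe sets gave 0.11 and 0.17 without passing (34697_at passed without siTAZ replicate C, at 0.24 and adjusted p = 0.0492). In APC cells 225745_at differed by 0.21 (adjusted p = 0.0861) and passed with the letter as a block (adjusted p = 0.0244) and without APC replicate A (0.26, adjusted p = 0.0400). LRP6 on 225745_at was lower in siTAZ than in sibcat cells (-0.29, adjusted p = 0.0134, and 0.0507 without sibcat replicate C) and lower in APC than in sibcat cells (-0.38, adjusted p = 0.00150).

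Between siTAZ and sibcat cells 2 of the 21 receptor probe sets were higher and 14 lower, where 26.7% of all probe sets were called, 12.8% higher and 13.9% lower. Between APC and sibcat cells 2 were higher and 9 lower (31.5% of all probe sets called, 16% higher and 15.6% lower), and between siTAZ and APC cells 2 were higher and 7 lower (32.4% called, 15.5% higher and 16.9% lower). The higher ones in siTAZ than in sibcat cells were FZD4 and FZD6, those higher in APC than in sibcat cells were FZD4 and FZD5, and those higher in siTAZ than in APC cells were FZD2 and FZD6. Among probe sets reaching the median level the called shares were 44.2%, 51.2% and 52.2% in these comparisons, in the order given. A fit of only those probe sets called 15, 14 and 7 of 18 members, against 49.2%, 55.9% and 56.6% of all tested. For siTAZ against APC the members thus lay below the share of all tested.

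By group means of the brightest probe sets, the order of levels differed from gene to gene, and neighbours are called told apart here by the test without the replicate block. The order was sibcat, APC, control, siTAZ for FZD1 and FZD7, where APC and sibcat were not told apart by the test in either gene, nor control and siTAZ in FZD1. It was APC, sibcat, siTAZ, control for FZD5 and LRP5, where siTAZ and control were not told apart in either gene, nor APC and sibcat in LRP5. For FZD6 it was siTAZ, sibcat, control, APC, with sibcat and control not told apart. For FZD2 it was sibcat, siTAZ, control, APC, with no neighbours told apart, and for FZD3 sibcat, control, siTAZ, APC, with the last 3 not told apart. For FZD4 it was APC, siTAZ, sibcat, control, where APC and siTAZ, and sibcat and control, were not told apart. For LRP6 it was sibcat, siTAZ, APC, control, where siTAZ and APC, and APC and control, were not told apart. With the replicate letter as a block, 5 of these neighbouring pairs did pass: siTAZ and control (adjusted p = 0.0122) and APC and control (adjusted p = 0.0141) in FZD2, APC and sibcat in FZD1 (adjusted p = 0.0249) and in LRP5 (adjusted p = 0.00873), and APC and control in LRP6 (adjusted p = 0.0244). The same block lost siTAZ and sibcat in FZD4, told apart without it (adjusted p = 0.0435 without and 0.0521 with the block). The range of the 4 group means ran from 0.36 in FZD4 to 1.16 in FZD1.

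The ligases that remove Frizzleds from the surface, RNF43 and ZNRF3, fell in sibcat and in APC cells, and both are also among the Wnt readouts above. RNF43, a ubiquitin ligase that acts on Frizzleds, averaged 8.47 in sibcat and 8.52 in APC cells, against 9.56 in control cells (-1.09 and -1.04, adjusted p = 6.88e-10 and 8.68e-10). ZNRF3, its relative, fell by 0.99 in sibcat cells and by 0.52 in APC cells (adjusted p = 1.77e-08 and 4.15e-05). Neither RNF43 (0.18) nor ZNRF3 (-0.10) passed in siTAZ cells. LGR6 fell by 0.72 in sibcat cells and rose by 0.29 in APC cells, and LGR4 rose by 0.77 in APC cells. Of 9 measured turnover and R-spondin genes, 0 rose and 3 fell in sibcat cells, 2 rose and 2 fell in APC cells, and 0 rose and 0 fell in siTAZ cells (limma). At an unadjusted p under 0.05 in siTAZ cells stood 2 of the 9, and 7116 of the brightest probe sets of all 19775 genes. Among the brightest probe sets of all 19775 genes, 15.2%, 17.1% and 15% were called higher and 11.8%, 15.8% and 15.7% lower in siTAZ, sibcat and APC cells.

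**Figure D4:**
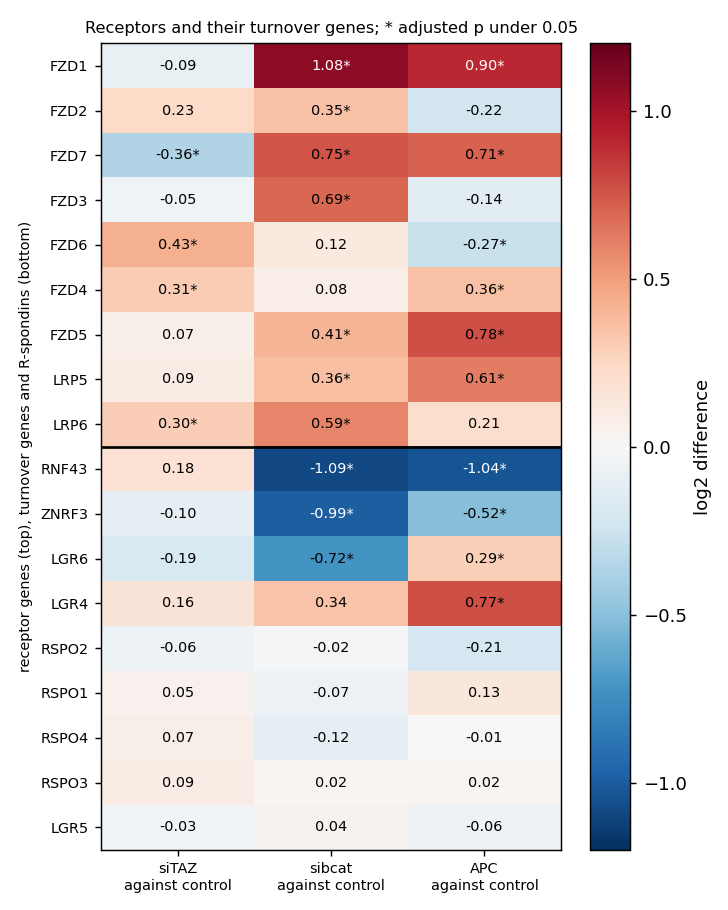
Log2 difference from control (colour and printed value) of the brightest probe set of the 9 receptor genes (above the line) and of 9 turnover and R-spondin genes (below it), in siTAZ, sibcat and APC cells; an asterisk marks an adjusted p under 0.05. FZD1 (1.08) and RNF43 (-1.09) lie at opposite ends in sibcat cells, and RNF43 is not called in siTAZ cells.

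Counts for other receptors and parts of the Wnt system follow. They stand beside the 27%, 32.9% and 30.7% of the brightest probe sets of all 19775 genes that were called in siTAZ, sibcat and APC cells. Of 7 Frizzled relatives and co-receptors, 2 rose and 0 fell in siTAZ, 2 rose and 1 fell in sibcat and 2 rose and 3 fell in APC cells. FZD10 was higher in siTAZ (1.08) and sibcat cells (0.79) and lower in APC cells (-1.09). Its mean was 3.42 in APC and 4.50 in control cells, so these sizes are uncertain. ROR1, a receptor for WNT5A, rose by 1.82 in sibcat and 1.57 in APC cells, and gave 0.52 in siTAZ cells without passing (adjusted p = 0.0831). PTK7, a co-receptor in planar polarity, rose by 0.46 in siTAZ and 0.29 in APC cells and fell by 0.29 in sibcat cells. Of 8 measured LRP relatives and their chaperone, 3 rose and 1 fell in siTAZ, 1 rose and 3 fell in sibcat and 1 rose and 3 fell in APC cells. VLDLR, a lipoprotein receptor, fell by 1.92 in APC cells (difference -1.92, adjusted p = 3.84e-12) and by 0.53 in sibcat cells, while LRP4 rose by 0.66 in siTAZ and by 0.56 in APC cells.

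Among secreted and membrane antagonists, 4 of 18 rose and 1 fell in siTAZ, 2 rose and 6 fell in sibcat and 3 rose and 5 fell in APC cells. DKK1, which binds LRP5 and LRP6, fell in siTAZ (-0.34), sibcat (-1.46) and APC cells (-2.96). DKK4, another LRP5 and LRP6 ligand, averaged 12.68 in APC cells and 6.19 in control cells (difference 6.50, adjusted p = 2.38e-16), and fell by 1.72 in sibcat cells to a mean of 4.47. Of 19 measured ligands and secretion genes, 5 rose and 0 fell in siTAZ, 3 rose and 1 fell in sibcat and 2 rose and 6 fell in APC cells. WNT5B was higher in siTAZ (1.31), sibcat (0.67) and APC cells (1.45), and WNT10A rose by 1.33 in sibcat cells.

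Downstream of the receptors, 5 of 15 receptor-proximal genes rose and 0 fell in siTAZ, 4 rose and 5 fell in sibcat and 1 rose and 3 fell in APC cells. AXIN2, a scaffold of the destruction complex and a Wnt target, fell by 1.66 in sibcat cells and by 1.36 in APC cells. DVL3, a Dishevelled protein that binds Frizzled tails, rose by 0.76 in sibcat and 0.39 in siTAZ cells. Of 12 planar polarity and other Frizzled partners, 4 rose and 0 fell in siTAZ, 4 rose and 3 fell in sibcat and 2 rose and 7 fell in APC cells. Among them PRICKLE1, a cytoplasmic polarity protein, rose by 1.64 in sibcat cells, and TSPAN12, a partner of FZD4 in Norrin signalling, rose by 0.73 in siTAZ and fell by 1.60 in sibcat and by 0.58 in APC cells. All of these comparisons with control share the same 4 control arrays.

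The 3 genes with the widest range of group means were also matched to 13002 other genes by Pearson correlation over the 16 arrays, which share 4 group means and the replicate letters. The patterns nearest to FZD1 were those of CEACAM1 (0.99), EFNA5 (0.99), GALNT10 (0.99) and ACSL5 (0.99). CEACAM1, a cell adhesion molecule, differed by -0.21, 1.29 and 1.17 from control in siTAZ, sibcat and APC cells. Nearest to FZD7 were B3GNT5, SVIL, STEAP3 and DYNLT3 (0.99 each), of which SVIL, an actin-binding protein, differed by -0.56, 1.83 and 1.63. Nearest to FZD3 were KATNAL1 (0.99), LPIN1 (0.98), SERPINB9P1 (0.98) and ISG15 (0.98), and LPIN1, a phosphatidate phosphatase, differed by 0.04, 0.82 and -0.07. FZD1 and FZD7 themselves correlated at 0.97.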

How the data were processed

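RNA of SW480 cells was hybridised to 1 Affymetrix array per sample, 16 in all. The deposited table holds log2 values that the authors made with RMA (background correction, quantile normalisation between arrays, summary per probe set), per the submitters' processing notes, which give no version. Values between 1.80 and 14.56 fit a log2 scale. Quantile normalisation hides a change in total RNA per cell. The array has no count behind a signal, so the number of arrays limits the precision, and the labels state biological replicates without separate cultures, so the p-values cover only the spread among these samples, and that may be technical.

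Of 54675 probe sets 41097 were annotated to 1 gene, 1801 to several and 11777 to none. Symbols were looked up by gene ID for 41043, and 0 changed. A single fit of all 16 arrays and all probe sets was made with limma 3.58.1 (R 4.3.3; lmFit, contrasts.fit, eBayes, no block), with Benjamini-Hochberg adjustment within each of 6 comparisons and a threshold of 0.05. The brightest probe set of a gene has the highest mean over all arrays. The likeness measure used genes reaching the median level. Named genes were the receptor genes, WWTR1, CTNNB1 and APC, up to 4 genes per pathway list with the smallest adjusted p against control, and 4 genes per likeness match. The members and lists were chosen with earlier results of these data known. Figures were drawn with matplotlib 3.10.9.

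Replicate letters were checked for pairing: deviations from group means correlated between same-lettered arrays of different groups in all 24 pairs (0.12 to 0.40), and the median was 0.22 within A and B or C and D against -0.22 across them. Same-lettered pairs also had a median of 0.22, and 3 of the 16 arrays correlated best with their own letter in all other groups. The values thus show A going with B and C with D, and pairing by single letters is not shown. The labels state no pairing either. The letter was still used as a block, and the value with it stands beside each result whose call it changed. Alternatives were this block and a block of letters joined in pairs (A with B, C with D). Further alternatives were other units of the test, filters, centrings, variance models, subsets and a covariate of RNA quality, and each array left out in turn. Promoter windows came from RefSeq (GRCh38.p14), and the array's own build was not needed.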

Additional observations from a re-analysis of the deposited data

Results flagged for a closer look

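Of the 84 sets of 4 arrays (21 probe sets in 4 groups), 5 held an array far from the other 3, and chance alone gives about 1 in 20. Replicate A read 5.20 on FZD1 204452_s_at in sibcat cells, against 5.50 to 5.51 in the others. Replicate A read 8.65 on FZD7 203705_s_at in siTAZ cells, against 8.59 to 8.60, a gap far below the differences reported for FZD7. Replicate A read 6.87 on FZD3 227524_at in APC cells, against 6.59 to 6.60. Replicate D read 6.71 on FZD4 218665_at in sibcat cells, against 6.87 to 6.89. Replicate C read 5.17 on LRP5 229591_at in siTAZ cells, against 5.03 to 5.05.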

How the results depend on the processing

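Over the 29 alternatives no receptor difference that was called, in the main analysis or in the alternative, changed sign, whereas 24 of the 58 uncalled differences did so in at least 1 alternative without being called there. Of the 68 called differences 40 were called under every alternative that could be run, and of the 58 uncalled ones 35 were never called. With 1 probe set a gene (9 genes in place of 21 probe sets) the counts called were 4 for siTAZ against control (30.1% of all genes called; 7 in the main analysis), 7 for sibcat against control (35.9%; 15), 6 for APC against control (33.7%; 10) and 8 for siTAZ against sibcat (36.7%; 16). With the mean of a gene's probe sets they were 7 for sibcat against control (33.5%), 6 for APC against control (32.4%), 6 for siTAZ against sibcat (35%) and 6 for APC against sibcat (40%; 11). Without probe sets ending in x_at or s_at, which leaves 15, they were 4 for siTAZ against control (16.6%) and 9 for sibcat against control (21.9%). In replicates A and B alone they were 1 for siTAZ against control, 6 for APC against control and 9 for siTAZ against sibcat, with 9.5%, 12.3% and 16.2% of all probe sets called. Leaving out 1 array gave 5 to 7 for siTAZ against control (17.7% to 20.5% of all probe sets called), 14 to 16 for sibcat against control (23% to 25.8%), 9 to 12 for APC against control (21.2% to 24.3%), 12 to 15 for siTAZ against sibcat (24.3% to 24.8%), 11 to 13 for APC against sibcat (29.1% to 30.1%) and 9 to 10 for siTAZ against APC (30% to 30.8%; 9). With the replicate letter as a block the counts were 8, 15, 12, 16, 14 and 11 in that order, with 23.9%, 29.3%, 27.8%, 30.3%, 35% and 35.8% of all probe sets called. The letter block changed no call other than those given beside their results. With letters joined in pairs as the block (A with B, C with D), the counts were 9, 16, 14, 17, 14 and 11. Of all probe sets it called 24.5%, 29.8%, 28.3%, 30.7%, 35.5% and 36.2%. Unlike the letter block, it called FZD3 227499_at in siTAZ cells (adjusted p = 0.0361) and 239082_at in APC cells (adjusted p = 0.0455). It also called LRP6 34697_at in sibcat cells (adjusted p = 0.0410) and FZD4 224337_s_at in APC cells (adjusted p = 0.0496). Probe sets under the median level give only uncertain sizes.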

Other observations

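The 3 probe sets annotated both to FZD8 and to the microRNA gene MIR4683 cannot be given to either gene. On 227405_s_at, the brightest of them, APC cells read 5.10, 4.91, 5.30 and 5.33, against 6.09, 5.83, 5.84 and 5.68 in control cells. All APC arrays lay below every control array (-0.70, SE 0.12, limma adjusted p = 3.61e-04), and sibcat (-0.20) and siTAZ cells (-0.20) did not pass. On 224325_at, below 5.10 in every group, APC cells were lower as well (-0.59, adjusted p = 8.25e-04). On 216587_s_at, also below 5.10, the differences in siTAZ, sibcat and APC cells were -0.26, 0.06 and 0.05, and none passed.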
